A study of Mus musculus with 10 samples.

Results

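The collagen genes of mouse 4T1 tumors were followed by their RNA in untreated tumors and in tumors given a light-activated nanoparticle. They were taken as every row of the deposited gene table whose symbol reads Col, a type number, a and a chain number, which gave 44 genes of 27 collagen types among 34449 genes. 4T1 is a mouse triple-negative breast carcinoma line, grown here under the skin of BALB/C mice aged 9 weeks. The control group had 5 libraries of untreated tumors, and 5 further libraries came from tumors given BC@Z-M + L. BC@Z-M is a nanoparticle that carries BN-O, a probe activated by low oxygen, and combretastatin-A4 phosphate, a vascular disrupting agent, inside an acid-degraded metal-organic framework coated with membrane of M1-like macrophages, and L is near-infrared laser light. The treated tumors received the whole combination, so its components cannot be told apart. Neither the time between treatment and collection nor whether each library came from its own mouse is given for the RNA, so the spread behind each p-value is that between libraries, which may be technical.

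Collagens are extracellular proteins built of 3 chains wound into a helix. Fibroblasts make most of the fibrillar collagens of connective tissue and of tumor stroma, whereas the sheet-forming type IV collagen lies in basement membranes under epithelium and around vessels. Chains are hydroxylated and folded in the endoplasmic reticulum, trimmed at their ends after secretion and then cross-linked outside the cell. In solid tumors the collagen matrix stiffens the tissue and stands in the way of drugs, nanoparticles and immune cells.

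Levels are given as FPKM, fragments scaled to transcript length and to the mapped fragments of the library, so that genes of different length can be set side by side. Of the 44 collagen genes, 16 had a mean of at least 10 FPKM over the 10 libraries, 4 lay between 1 and 10 FPKM, 11 between 0.1 and 1 FPKM and 13 under 0.1 FPKM. The 20 genes with a mean of at least 1 FPKM were tested with limma on log2(FPKM + 1) together with every other gene at that level. Together the collagen genes made up 0.215% to 0.402% of the summed FPKM in control libraries and 0.188% to 0.544% in BC@Z-M + L libraries.

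No difference between the groups passed the test in any of the 20 tested collagen genes. No gene had an adjusted p under 0.05 by limma, a level that 0% of the 12802 tested genes reached, and the smallest adjusted p was 0.997. None had an unadjusted p under 0.05 either, against 2.52% of all tested genes. The groups overlapped in each of the 20 genes, whereas they did not overlap in 0.414% of all tested genes. On the mean, 19 of the 20 genes were higher after BC@Z-M + L, against 46.2% of all tested genes, and only Col8a1 was lower. The median difference was 0.14 on the log2 scale, and that of all tested genes was -0.012.

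That shared direction depended most on BC@Z-M + L library 1. Without it, 10 of 20 collagen genes were higher on the mean, against 43.9% of all tested genes. All tested genes then had a median of -0.022, and the median difference of the collagen genes was 0.020. Without BC@Z-M + L library 2 it was 0.036 over the 19 genes still tested, without library 3 it was 0.085, and without control library 1 it was 0.068. It was 0.24 without BC@Z-M + L library 4 and 0.37 without library 5, when 20 of 20 genes were higher, against 51.9% of all tested genes. The other fits ranged from 13 of 20 genes higher (without control library 1) to 19 of 20 (without BC@Z-M + L library 4). No collagen gene had an adjusted p under 0.05 by limma in any of these fits, and 0 of all tested genes had one.

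The estimated counts deposited beside the FPKM values gave no call either. With edgeR 35 collagen genes could be tested, 0 had an adjusted p under 0.05, as did 0% of all genes tested, and 1 had an unadjusted p under 0.05, against 2.92% of all. With DESeq2, 43 collagen genes had a p-value, and 0 had an adjusted p under 0.05, against 0.0182% of all genes, or an unadjusted p under 0.05, against 2.62% of all. The median log2 fold change of the collagen genes was 0.32 with edgeR, where 33 of 35 were higher after BC@Z-M + L. Over all genes tested with edgeR the median was 0.016 and 53.3% were higher.

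**Figure D1:**
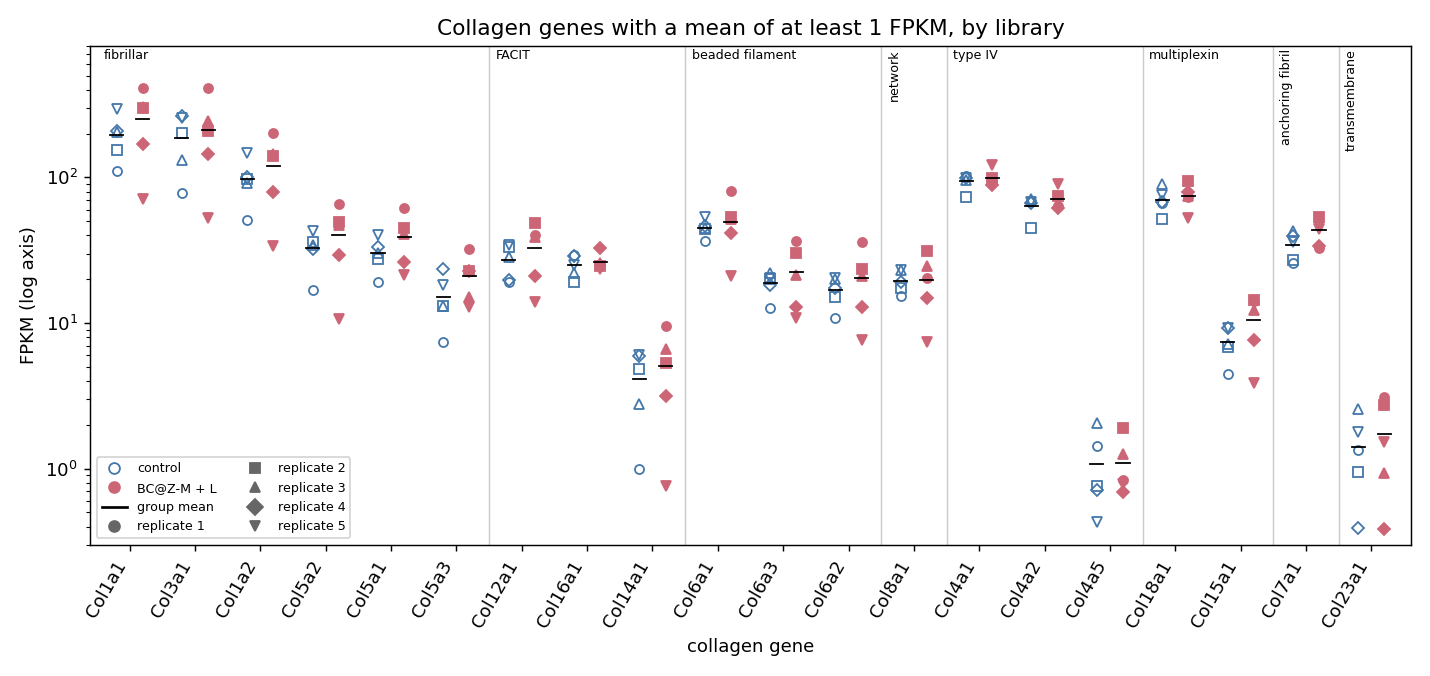
FPKM on a log axis of the 20 collagen genes with a mean of at least 1 FPKM, with open symbols for the 5 control libraries, filled symbols for the 5 BC@Z-M + L libraries, a symbol shape for each replicate number and bars for group means. In 11 of the 20 genes BC@Z-M + L library 5 (filled triangles pointing down) is the lowest of all libraries and in 11 library 1 (filled circles) is the highest, while Col4a1, Col4a2, Col16a1 and Col18a1 lie close together.

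The collagen genes spread widely inside the treated group. BC@Z-M + L library 1 was the highest of the 10 libraries in 11 of the 20 tested collagen genes, against 7.97% of all tested genes. BC@Z-M + L library 5 was the lowest in 11 of 20, against 21.1% of all tested genes. In 15 of 20 collagen genes the SD of log2(FPKM + 1) was larger in BC@Z-M + L than in control libraries, against 56.5% of all tested genes. The median SD of the collagen genes was 0.38 in control and 0.70 in BC@Z-M + L libraries, and over all tested genes it was 0.19 and 0.21. These shares are descriptions without a test, because collagen genes share their libraries and vary together.

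The fibrillar class, whose chains build the banded fibers of connective tissue, has 11 genes here, and 6 of them were tested. Col1a1, on chromosome 11, encodes the main chain of type I collagen and was on average the most abundant collagen RNA. It had 111, 155, 206, 208 and 294 FPKM in control libraries 1 to 5 and 414, 300.3, 305, 169 and 70.7 FPKM in BC@Z-M + L libraries 1 to 5. The treated group held both the highest and the lowest library, and 3 of its 5 libraries lay above all controls. The means were 195 ± 68.5 and 251.9 ± 133 FPKM (SD, n = 5 each), and the difference on the log2 scale was 0.21, with a 95% interval from -0.73 to 1.15.

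Col1a2, on chromosome 6, encodes the partner chain of type I collagen. It had 50.9, 96.9, 91.5, 100.04 and 147 FPKM in control libraries and 201, 141, 146, 79.8 and 33.6 FPKM in BC@Z-M + L libraries, in the same order of libraries. Library 1 was again the highest and library 5 the lowest of the treated group. The means were 97.2 ± 34.0 and 120.2 ± 64.8 FPKM (SD, n = 5 each) and the log2 difference was 0.15, with a 95% interval from -0.80 to 1.09.

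Col3a1, on chromosome 1, forms type III collagen, which is laid down with type I in pliable tissue and in early scars. Control libraries 1 to 5 had 78.1, 201, 133, 266 and 258 FPKM, and BC@Z-M + L libraries 1 to 5 had 411, 209, 243, 144 and 52.3 FPKM. The highest treated library stood 7.86-fold above the lowest, while the control libraries spanned 3.40-fold. The means, 187 ± 80.9 and 212 ± 133 FPKM (SD, n = 5 each), differed by 0.030 on the log2 scale, with a 95% interval from -1.07 to 1.13.

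Type V collagen seeds the fibrils of type I. Its Col5a1 chain, on chromosome 2, had 19.2, 27.5, 30.4, 33.1 and 40.5 FPKM in control libraries and 61.3, 44.7, 40.8, 26.2 and 21.3 FPKM in BC@Z-M + L libraries. Its Col5a2 chain, on chromosome 1, had 17.0, 35.9, 34.6, 32.5 and 42.8 FPKM against 65.5, 49.3, 46.9, 29.5 and 10.6 FPKM. In both chains 3 treated libraries lay above all controls, and in Col5a2 library 5 lay below them all. The log2 differences were 0.30 for Col5a1 (95% interval -0.30 to 0.90) and 0.14 for Col5a2 (95% interval -0.77 to 1.06).

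Col5a3, on chromosome 9, a less widespread type V chain, had the largest log2 difference among the tested collagen genes. It had 7.38, 13.1, 13.0, 23.4 and 18.3 FPKM in control libraries and 32.3, 22.7, 15.0, 22.6 and 13.0 FPKM in BC@Z-M + L libraries. Only library 1 of the treated group exceeded every control. The means were 15.0 ± 6.09 and 21.1 ± 7.64 FPKM (SD, n = 5 each), the log2 difference was 0.48 (95% interval -0.16 to 1.13) and the adjusted p by limma was 0.997.

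The other 5 fibrillar genes had means under 1 FPKM. Col27a1 reached 0.294 to 0.730 FPKM in control and 0.392 to 1.18 FPKM in BC@Z-M + L libraries. Col11a1, Col11a2 and Col24a1 lay between 0.0847 and 0.785 FPKM in every library. Col2a1, the collagen of cartilage, had at most 0.144 FPKM and was listed at 0 in 2 control libraries. Acan, the large proteoglycan of cartilage, was listed at 0 in 8 of the 10 libraries.

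As a sum, markers of fibroblasts had their extremes in the same libraries, but single markers differed. The summed FPKM of 10 fibroblast markers was 102, 228, 151, 157 and 194 in control libraries 1 to 5 and 306, 261, 225, 105 and 91.5 in BC@Z-M + L libraries 1 to 5, so that its highest and lowest values lay in the libraries that held those of Col1a1. Of the single markers, only Fap and Acta2 had both extremes there. Pdgfra, Pdgfrb, Thy1, Pdpn and Fbln1 were highest in BC@Z-M + L library 2, and Tagln in control library 2. Pdgfrb and Thy1 were lowest in control library 1, and Dcn, Lum and Pdpn in BC@Z-M + L library 4. All 10 markers were tested, and 9 had a higher mean in the treated group, against 46.2% of all tested genes. None had an adjusted p under 0.05 by limma, as with 0% of all tested genes. Dcn and Lum stand in both this list and the assembly list. The summed FPKM of 6 markers of epithelial tumor cells was 1805 to 2293 in control libraries and 2030, 1608, 1663, 2184 and 2683 in BC@Z-M + L libraries, with its maximum in library 5. Krt8 and Krt18 made up most of that sum. Krt18, Krt19 and Cdh1 were also highest in BC@Z-M + L library 5. Krt8 was highest in BC@Z-M + L library 4, and Epcam and Cldn4 in control library 3. The part of cell makeup in the collagen levels was not tested, and in bulk RNA fewer cells of a type and less RNA per cell cannot be told apart.

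**Figure D2:**
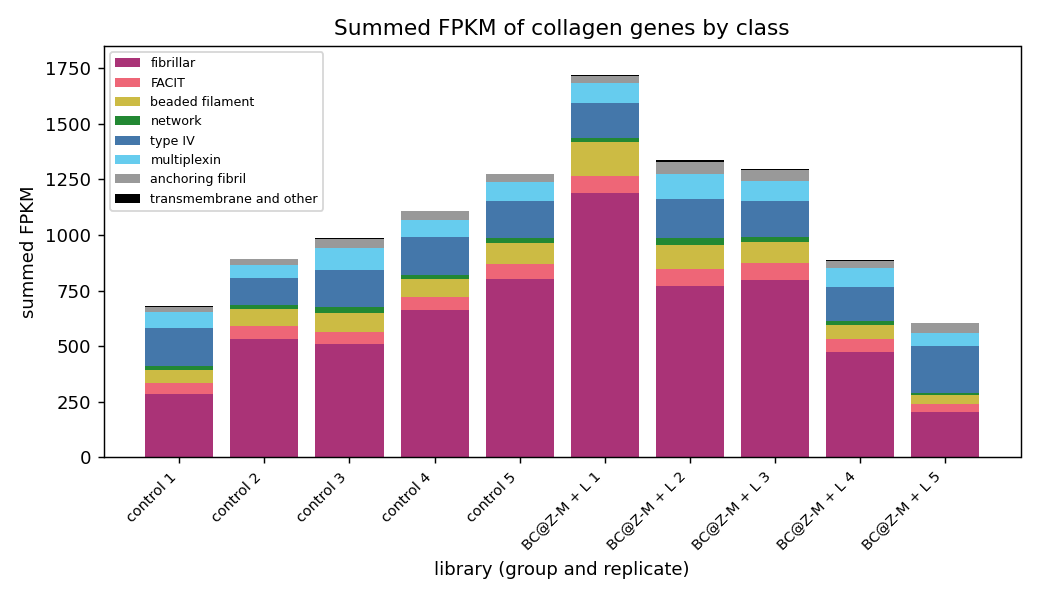
Summed FPKM of the collagen genes in each of the 10 libraries, stacked by structural class, from 0 on a linear axis. Totals run from 681 to 1276 in control libraries and from 605 to 1720 in BC@Z-M + L libraries, and the fibrillar class takes most of that range while type IV collagen keeps a similar height in every column.

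By class, the fibrillar genes summed to 284, 532, 510, 664 and 802 FPKM in control libraries and to 1188, 769, 799, 473 and 203 FPKM in BC@Z-M + L libraries. The type IV genes summed to 171, 119, 169, 167 and 167 FPKM in control libraries and to 158, 175, 163, 152 and 212 FPKM in BC@Z-M + L libraries. The library with the least fibrillar collagen RNA thus had the most type IV collagen RNA. Fibrillar genes made up 41.8% to 62.9% of collagen FPKM in control libraries and 33.5% to 69.1% in BC@Z-M + L libraries. Type IV genes made up 13.1% to 25.2% and 9.17% to 35.1%. The whole family averaged 989 ± 224 FPKM in control and 1169 ± 432 FPKM in BC@Z-M + L libraries (SD, n = 5 each), and these sums were not tested.

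The promoters of 4 genes are printed to set Col3a1, Col5a1 and Col6a3 beside Col7a1. The first 3 were highest in BC@Z-M + L library 1 and had library 5 lowest in the treated group. Over all 10 libraries Col5a1 was lowest in control library 1. Col7a1 varied less within the treated group and in another order of libraries. Each is the 250 bases before the start site in RefSeq on GRCm38.p6, read 5′ to 3′ on the strand of the gene, with promoter motifs in capitals wherever they occur on either strand. Marked are only the letters of the CCAAT box, of the TATA box (TATAAA) and of the GC box, at any distance from the start site. The letters of the GC box are GGGCGG. Each was also sought as its reverse complement, and no marked motif overlaps another. Windows that overlap an annotated exon were not printed. They lie at chr1:45311288-45311537 (plus strand) for Col3a1, chr2:27886175-27886424 (plus strand) for Col5a1, chr1:90843972-90844221 (minus strand) for Col6a3 and chr9:108953336-108953585 (plus strand) for Col7a1.
Col3a1: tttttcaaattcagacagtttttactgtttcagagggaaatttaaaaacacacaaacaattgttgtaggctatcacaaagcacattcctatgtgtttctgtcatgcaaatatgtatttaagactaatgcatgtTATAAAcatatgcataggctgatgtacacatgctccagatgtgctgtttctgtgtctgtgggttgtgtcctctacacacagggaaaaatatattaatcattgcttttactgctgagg
Col5a1: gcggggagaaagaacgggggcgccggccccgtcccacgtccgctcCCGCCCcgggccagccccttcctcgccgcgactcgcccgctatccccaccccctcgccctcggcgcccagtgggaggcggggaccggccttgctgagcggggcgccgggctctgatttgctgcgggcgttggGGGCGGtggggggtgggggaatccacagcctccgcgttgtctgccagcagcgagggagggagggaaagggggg
Col6a3: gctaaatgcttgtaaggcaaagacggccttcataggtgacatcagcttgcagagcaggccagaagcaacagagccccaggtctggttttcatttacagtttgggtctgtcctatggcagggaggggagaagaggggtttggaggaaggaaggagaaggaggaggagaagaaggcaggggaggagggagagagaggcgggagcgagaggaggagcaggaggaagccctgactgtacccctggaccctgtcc
Col7a1: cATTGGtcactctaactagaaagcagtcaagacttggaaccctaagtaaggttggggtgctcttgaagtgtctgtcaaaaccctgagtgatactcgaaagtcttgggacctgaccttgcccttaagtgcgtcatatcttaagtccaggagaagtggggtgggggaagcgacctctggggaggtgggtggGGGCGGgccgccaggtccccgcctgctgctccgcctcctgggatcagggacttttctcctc

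The 4 windows differed in base composition. That of Col3a1 had 35.2% G and C with 1 TATAAA that begins 117 bases before the start site. That of Col5a1 had 76.4% G and C with 2 GGGCGG. That of Col6a3 had 57.2% G and C with none of the 3 motifs, and that of Col7a1 had 56.4% G and C with 1 CCAAT and 1 GGGCGG. RefSeq windows were found for 35 of the 44 collagen genes, 38 windows in all. Of these, 13 (34.2%) held CCAAT, 5 (13.2%) TATAAA and 22 (57.9%) GGGCGG, against 33.8%, 12.4% and 32.7% of 32851 windows of the same length over all genes. These shares carry no test, and a match in these letters is a description only.

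Beaded filaments of type VI collagen tie cells to the fibrils around them. Col6a1, on chromosome 10, had 36.5, 44.3, 44.7, 46.5 and 53.3 FPKM in control libraries and 80.9, 53.4, 52.1, 41.2 and 21.1 FPKM in BC@Z-M + L libraries. Its log2 difference was 0.028, with a 95% interval from -0.58 to 0.64. The control values lay within 1.46-fold of each other and the treated values within 3.84-fold.

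Col6a2, on the same chromosome, had 10.8 to 20.4 FPKM in control libraries and 36.0, 23.7, 21.0, 12.8 and 7.67 FPKM in BC@Z-M + L libraries. Col6a3, on chromosome 1, had 12.7 to 22.0 FPKM against 36.5, 30.0, 21.3, 12.9 and 10.9 FPKM. In both, as in Col6a1, library 1 was the highest and library 5 the lowest of the treated group. Their log2 differences were 0.12 (95% interval -0.61 to 0.86) and 0.13 (95% interval -0.52 to 0.78). The remaining chains, Col6a4, Col6a5 and Col6a6, did not pass 0.279 FPKM in any library.

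FACIT collagens sit on the surface of fibrils. Among the 9 genes of this class, 3 were tested. Col12a1, on chromosome 9, had 19.3, 33.1, 28.6, 19.7 and 34.2 FPKM in control libraries and 40.1, 48.7, 39.2, 20.9 and 14.0 FPKM in BC@Z-M + L libraries, with 3 treated libraries above and 1 below all controls. Its log2 difference was 0.17, with a 95% interval from -0.52 to 0.86.

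Col14a1, on chromosome 15, a regulator of fibril diameter, had 0.989, 4.85, 2.79, 5.89 and 6.08 FPKM in control libraries and 9.60, 5.31, 6.59, 3.14 and 0.759 FPKM in BC@Z-M + L libraries. Its treated libraries spanned 12.6-fold and its control libraries 6.15-fold, the widest range of the tested collagen genes in the treated group. Col16a1, on chromosome 4, stood apart from both, with 29.4, 19.1, 22.0, 29.0 and 25.0 FPKM in control libraries and 24.9, 24.7, 26.0, 32.5 and 23.6 FPKM in BC@Z-M + L libraries. Its treated libraries lay within 1.38-fold of each other, and library 4, not library 1, was the highest. The log2 differences were 0.16 for Col14a1 (95% interval -0.89 to 1.20) and 0.086 for Col16a1 (95% interval -0.21 to 0.38). The other 6 FACIT genes had at most 0.630 FPKM in any library.

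Type IV collagen forms the meshwork of basement membranes. Col4a1, on chromosome 8, had 102, 72.9, 96.2, 99.8 and 98.5 FPKM in control libraries and 93.1, 99.5, 95.5, 89.2 and 122 FPKM in BC@Z-M + L libraries. Col4a2, on the same chromosome, had 68.4, 45.2, 70.5, 66.9 and 67.9 FPKM against 63.8, 74.0, 66.2, 62.0 and 89.7 FPKM. In both genes control library 2 was the lowest and BC@Z-M + L library 5 the highest of the 10 libraries.

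The means of Col4a1 were 93.8 ± 11.8 and 99.8 ± 12.7 FPKM and those of Col4a2 63.8 ± 10.5 and 71.1 ± 11.4 FPKM (SD, n = 5 each). The log2 differences were 0.090 (95% interval -0.17 to 0.35) and 0.16 (95% interval -0.16 to 0.48). These intervals are among the narrowest of the family. The 2 genes lie head to head, their annotated exons share 22 bases, and the library kit did not mark strand, so reads there cannot be assigned to either gene.

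The summed FPKM of 6 endothelial markers was 28.8 to 35.2 in control libraries and 44.5, 47.2, 34.9, 21.6 and 31.2 in BC@Z-M + L libraries, a different order from that of Col4a1. All 6 had a higher mean in the treated group, against 46.2% of all tested genes. None had an adjusted p under 0.05 by limma, as with 0% of all tested genes. With single libraries left out, the log2 difference fell as low as -0.027 for Cdh5, -0.018 for Tek and -0.079 for Emcn. It stayed positive for Pecam1, Kdr and Tie1. Col4a5, on the X chromosome, had 0.427 to 2.05 FPKM in control and 0.692 to 1.89 FPKM in BC@Z-M + L libraries, with a log2 difference of 0.032 (95% interval -0.45 to 0.51).

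Col4a4, on chromosome 1, a chain of the basement membrane of the kidney filter, was the only collagen gene with an unadjusted p under 0.05 by edgeR. Its levels were 0.00621, 0.0157, 0.0117, 0.00850 and 0.00945 FPKM in control libraries and 0.0147, 0.0294, 0.0123, 0.0215 and 0.0259 FPKM in BC@Z-M + L libraries. The groups overlapped, with 3 treated libraries above all controls. The edgeR log2 fold change was 0.97, with an unadjusted p of 0.0392 and an adjusted p of 0.985, and DESeq2 gave an unadjusted p of 0.0714. It rests on 4 to 22 estimated counts per library, and 1 count need not be 1 read, since low counts pile up at 4. Its neighbour Col4a3 and Col4a6 were each listed at 0 in 3 and 5 libraries, respectively.

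**Figure D3:**
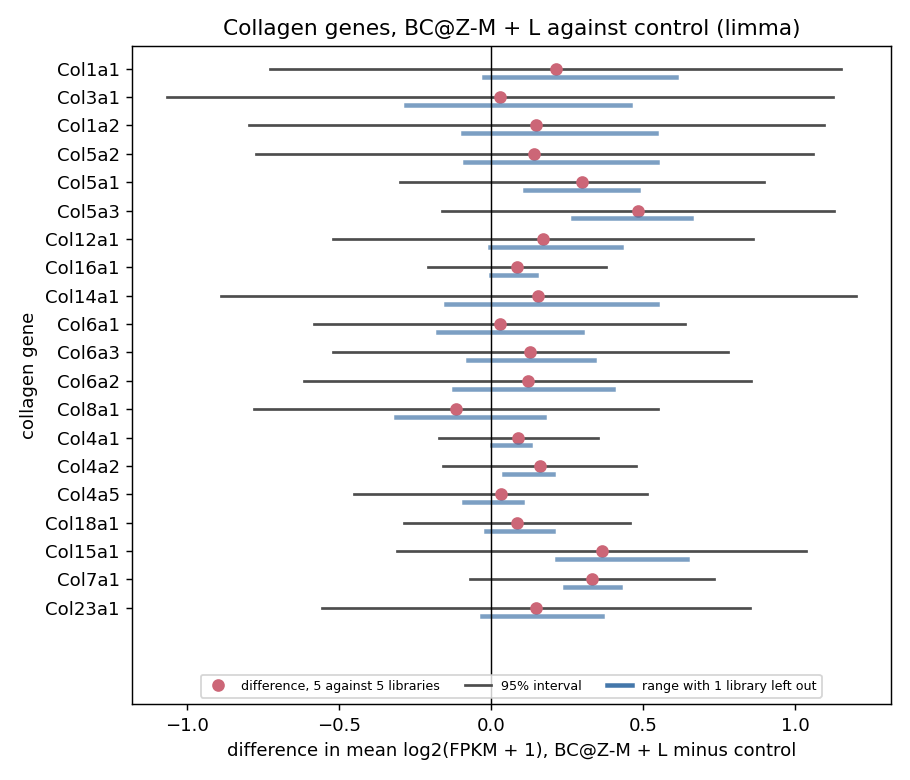
Difference in mean log2(FPKM + 1) between BC@Z-M + L and control libraries for the 20 tested collagen genes, with the 95% interval from limma (thin lines) and the range of the difference when each of the 10 libraries is left out in turn (thick lines). All intervals contain 0, from the wide one of Col3a1 (-1.07 to 1.13) to the narrow one of Col4a1 (-0.17 to 0.35).

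Multiplexins are collagens of basement membrane zones that also carry sugar chains. Col18a1, on chromosome 10, whose end fragment endostatin acts on vessels, had 66.6, 52.0, 89.7, 68.2 and 75.4 FPKM in control libraries and 73.2, 94.8, 74.0, 79.6 and 52.8 FPKM in BC@Z-M + L libraries. Library 2 of the treated group was the highest, and the lowest library was a control. The log2 difference was 0.085, with a 95% interval from -0.29 to 0.46.

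Col15a1, on chromosome 4, the other multiplexin, had its lowest value in BC@Z-M + L library 5, as Col1a1 did. It had 4.45, 6.87, 7.17, 9.18 and 9.31 FPKM in control libraries and 14.2, 14.4, 12.2, 7.67 and 3.84 FPKM in BC@Z-M + L libraries. Here 3 treated libraries exceeded every control and library 5 lay below them all. The means were 7.39 ± 1.99 and 10.5 ± 4.58 FPKM (SD, n = 5 each), and the log2 difference was 0.36 (95% interval -0.31 to 1.04).

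Col7a1, on chromosome 9, forms the anchoring fibrils that fasten epithelium to the tissue below, and it had the smallest p of the family by limma. It had 26.0, 27.1, 42.5, 39.4 and 36.0 FPKM in control libraries and 32.7, 53.8, 52.3, 33.7 and 44.6 FPKM in BC@Z-M + L libraries. No treated library lay below the lowest control and 3 lay above the highest, among them library 5. The means were 34.2 ± 7.38 and 43.4 ± 9.97 FPKM (SD, n = 5 each) and the log2 difference was 0.33 (95% interval -0.070 to 0.73). The adjusted p by limma was 0.997 from an unadjusted p of 0.0966, and the difference stayed between 0.24 and 0.42 when single libraries were left out.

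In the network-forming class, type VIII collagen is known from the matrix beneath endothelium. Col8a1, on chromosome 16, had 15.2, 17.4, 23.0, 19.2 and 23.1 FPKM in control libraries and 20.2, 31.4, 24.7, 14.8 and 7.41 FPKM in BC@Z-M + L libraries. It was the only tested collagen gene with a lower mean of log2 values after treatment, by -0.12 (95% interval -0.78 to 0.55), while its mean FPKM was 19.6 ± 3.47 and 19.7 ± 9.18 (SD, n = 5 each). With edgeR the log2 fold change was 0.019, and with array weights in limma the difference was 0.043, so its direction was not stable. Col8a2 had 0.00714 to 0.467 FPKM in control and 0.0912 to 0.229 FPKM in BC@Z-M + L libraries, and Col10a1, a collagen of growth cartilage, did not pass 0.0736 FPKM.

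Transmembrane collagens are anchored in the cell surface. Col23a1, on chromosome 11, had 1.34, 0.942, 2.55, 0.393 and 1.77 FPKM in control libraries and 3.11, 2.75, 0.927, 0.385 and 1.51 FPKM in BC@Z-M + L libraries, and its log2 difference was 0.15 (95% interval -0.56 to 0.85). Col13a1 and Col25a1 had at most 1.45 and 0.136 FPKM in any library.

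Col17a1, on chromosome 19, is the collagen of hemidesmosomes, by which basal keratinocytes hold to the skin's basement membrane. It had 0.666, 0.0920, 0.863, 0.205 and 0.0630 FPKM in control libraries and 0.141, 5.17, 0.461, 0.157 and 0.331 FPKM in BC@Z-M + L libraries. BC@Z-M + L library 2 alone exceeded every control. Its mean over all libraries, 0.815 FPKM, kept it out of the limma test, and edgeR gave a log2 fold change of 1.74 with an adjusted p of 0.985.

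Markers of keratinocytes were high in the same libraries as a sum. The summed FPKM of 6 of them was 48.8, 4.11, 44.4, 4.96 and 5.43 in control libraries and 17.0, 279, 14.8, 3.34 and 8.66 in BC@Z-M + L libraries, so library 2 of the treated group and control libraries 1 and 3 were high in both. Krt5, a keratin of basal keratinocytes, had 92.7 FPKM in BC@Z-M + L library 2 and at most 11.1 FPKM elsewhere. Of the 6 markers, 3 were each listed at 0 in 3 libraries. The part of skin RNA in the level of Col17a1 was not tested.

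**Figure D4:**
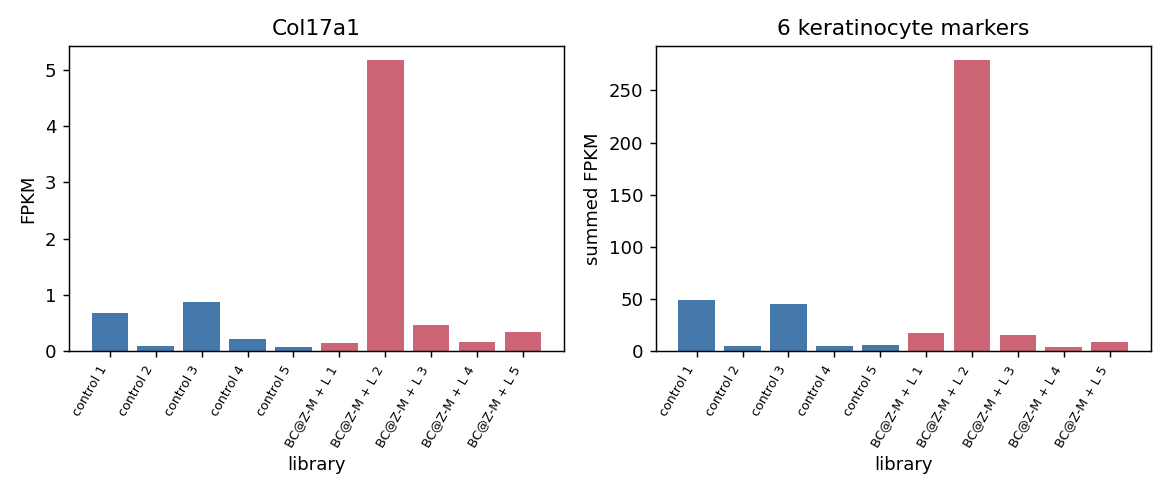
FPKM of Col17a1 (left) and summed FPKM of 6 keratinocyte markers (right) in each of the 10 libraries, with blue bars for control and red bars for BC@Z-M + L, both on linear axes from 0. BC@Z-M + L library 2 stands out in both panels, at 5.17 FPKM and 279 summed FPKM.

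The 2 remaining genes belong to no large class. Col28a1, on chromosome 6, had 0.184 to 0.932 FPKM in control and 0.218 to 0.823 FPKM in BC@Z-M + L libraries, and its edgeR log2 fold change was -0.11. Col26a1 was listed at 0 in 3 libraries and did not pass 0.0206 FPKM.

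Ratios between chains of 1 collagen type differed in their range over the libraries. Col1a1 stood at 2.18, 1.60, 2.25, 2.08 and 2.01 times the FPKM of Col1a2 in control libraries and at 2.05, 2.14, 2.09, 2.12 and 2.10 times in BC@Z-M + L libraries, although the levels of both genes spanned 5.85-fold and 5.99-fold in that group. Control library 2 alone lay under 2. The ratio of Col4a1 to Col4a2 was 1.36 to 1.61 in control and 1.34 to 1.46 in BC@Z-M + L libraries.

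Col6a1 to Col6a2 was 2.23 to 3.36 in control and 2.24 to 3.22 in BC@Z-M + L libraries. Col5a1 to Col5a2 was 0.766 to 1.13 in control libraries and 0.870 to 0.936 in 4 BC@Z-M + L libraries, and it was 2.01 in BC@Z-M + L library 5. Col4a1 to Col1a1, which sets basement membrane against fibrillar collagen, was 0.335 to 0.914 in control libraries and 0.225 to 1.72 in BC@Z-M + L libraries, with its maximum in library 5.

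Across the 10 libraries, 8 pairs of collagen genes were correlated on log2(FPKM + 1), with p-values from 100000 permutations adjusted over the 8 pairs. For Col1a1 and Col1a2 Pearson's r was 0.98 (permutation p 3e-05, adjusted 8e-05) and Spearman's rho 0.93 (permutation p 0.0004, adjusted 0.0008). Without the libraries farthest from the median, BC@Z-M + L libraries 1 and 5, r was 0.96. The pairs Col1a1 with Col3a1, Col5a2 and Col6a1, Col5a1 with Col5a2, Col6a1 with Col6a2 and Col4a1 with Col4a2, had r from 0.90 to 0.98 and rho from 0.84 to 0.98, with permutation p-values adjusted to at most 0.00441. Their r without the farthest libraries was 0.73 to 0.97, lowest for Col4a1 and Col4a2.

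The remaining pair set type I against type IV collagen, and no relation was detected. For Col1a1 and Col4a1 r was -0.32 (permutation p 0.357, adjusted 0.357) and rho -0.32 (permutation p 0.369, adjusted 0.369), and r turned to 0.29 without BC@Z-M + L libraries 1 and 5. With the group means removed r was 0.99 for Col1a1 and Col1a2 and -0.38 for Col1a1 and Col4a1. The pairs share libraries and depth, and the difference between pairs was not tested.

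**Figure D5:**
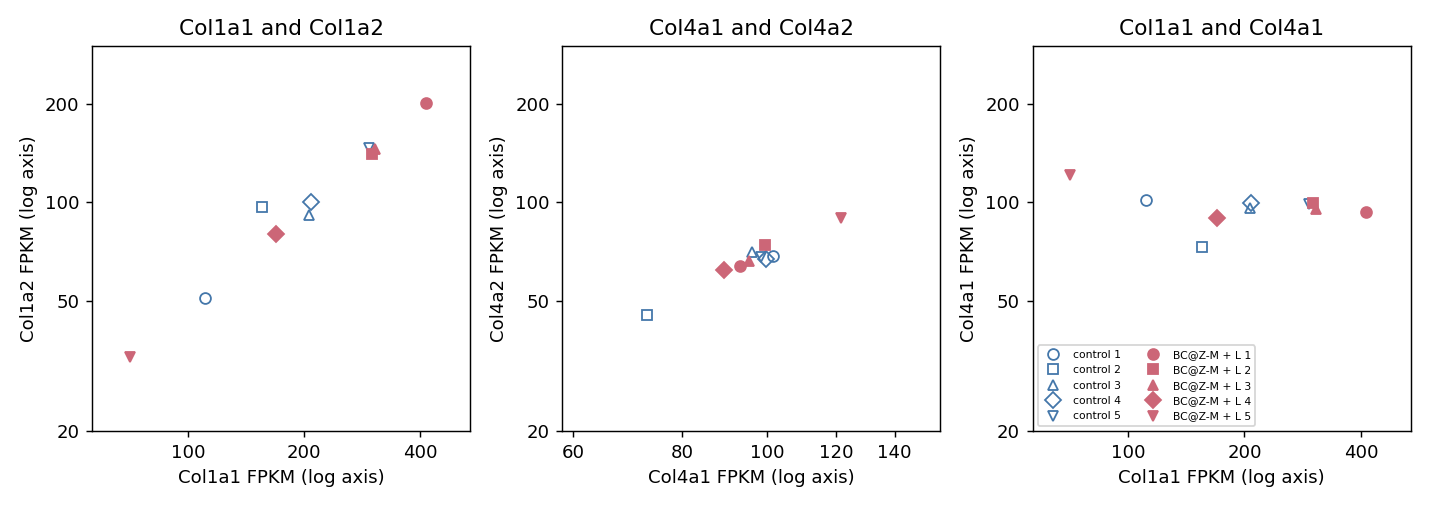
FPKM of Col1a1 against Col1a2 (left), Col4a1 against Col4a2 (middle) and Col1a1 against Col4a1 (right) in the 10 libraries, on log axes, with open symbols for control and filled symbols for BC@Z-M + L. Points of the left panel lie along a line (r of 0.98), while in the right panel Col4a1 stays between 72.9 and 122 FPKM as Col1a1 goes from 70.7 to 414 FPKM.

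Genes that make collagen ready for use were followed in a list of 32 enzymes, chaperones and fibril-binding proteins, of which 29 were tested. None had an adjusted p under 0.05 by limma, as with 0% of all tested genes. The mean of 18 was higher and that of 11 lower in the treated group, against 46.2% higher among all tested genes. Their median log2 difference was 0.021. P4ha2, a chain of the enzyme that hydroxylates prolines of collagen, had 7.36, 6.46, 7.87, 7.14 and 8.62 FPKM in control libraries and 8.92, 11.9, 11.1, 6.40 and 9.24 FPKM in BC@Z-M + L libraries. It was above all controls in 4 treated libraries and below them in library 4. The log2 difference was 0.29 (95% interval -0.026 to 0.60), with an adjusted p of 0.997 by limma and of 0.985 by edgeR. Its unadjusted p was 0.0384 by edgeR and 0.0383 by DESeq2. It was the only gene of this list under 0.05, 1 of 31 tested by edgeR and 1 of 32 by DESeq2. Among all genes the shares were 2.92% and 2.62%.

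P4ha1, the other main chain of that enzyme, had 39.6 to 48.4 FPKM in control and 36.7 to 64.5 FPKM in BC@Z-M + L libraries, a log2 difference of 0.21 (95% interval -0.12 to 0.53). P4hb, the disulfide isomerase that serves as its second subunit, had 324 ± 30.2 and 328 ± 31.0 FPKM (SD, n = 5 each). Ppib, a prolyl isomerase that helps the helix fold, had 112 to 140.5 FPKM in control libraries and 92.5, 88.3, 110.7, 157 and 95.8 FPKM in BC@Z-M + L libraries, with 4 treated libraries below all controls and 1 above. Its log2 difference was -0.23 (95% interval -0.56 to 0.10). Serpinh1, the collagen chaperone HSP47, had 247 ± 41.0 and 252.4 ± 56.7 FPKM (SD, n = 5 each).

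Outside the cell, Pcolce, which enhances trimming of procollagen, had 51.9 ± 5.58 and 58.3 ± 10.3 FPKM (SD, n = 5 each). Lox, which cross-links the fibrils, had 16.2, 36.9, 25.0, 28.9 and 36.2 FPKM in control libraries and 56.8, 52.5, 29.6, 18.9 and 11.6 FPKM in BC@Z-M + L libraries. Sparc, a collagen-binding matrix protein, had 174, 337, 215, 287 and 331 FPKM against 437, 304, 314, 199 and 138 FPKM. Both had library 1 highest and library 5 lowest in the treated group, as type I collagen did. Their log2 differences were 0.067 and -0.014, and that of Sparc was 0.059 with edgeR.

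Of 10 collagen receptors, 8 were tested and none had an adjusted p under 0.05 by limma, as with 0% of all tested genes. The mean of 7 was higher and that of 1 lower in treated libraries, against 46.2% higher among all tested genes. Their median log2 difference was 0.12. Itgb1, the shared chain of the collagen-binding integrins, was the most abundant, at 253 ± 18.9 and 239.9 ± 25.3 FPKM (SD, n = 5 each), a log2 difference of -0.077. Itga2, one of its partners, had a log2 difference of 0.25 (95% interval -0.23 to 0.73). Mrc2, which takes up collagen for breakdown, had 3.10 to 7.33 FPKM in control libraries and 10.8, 9.07, 8.84, 4.83 and 2.21 FPKM in BC@Z-M + L libraries, a log2 difference of 0.23 (95% interval -0.49 to 0.95).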

How the data were processed

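The 10 libraries of tumor RNA were made with a kit that does not mark strand. The deposited FPKM values were estimated by the authors with StringTie after alignment with HISAT2 and read checks in FastQC, as the methods state. The submitters' processing notes also name cutadapt 1.9 and GRCm38, while the methods name another release, so only chromosomes are given for genes. The deposited estimated counts are whole numbers of unstated origin and had totals of 53411182 to 65263003 in control libraries and 53446143 to 77510631 after BC@Z-M + L. A median of 1192 genes had a count of 4 and 593 a count of 3 in controls, so 1 count need not be 1 read. The labels speak of triplicates, but 5 libraries per group are listed and all were used.

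From FPKM, log2(FPKM + 1) of genes with a mean of at least 1 was fitted with limma 3.58.1 (variance trend, Benjamini-Hochberg over all genes) in R 4.3.3. A log2 difference is therefore on the log2(FPKM + 1) scale and understates changes of low genes. The estimated counts went into edgeR 4.0.16 (quasi-likelihood, TMM) and DESeq2 1.42.0. The limma, edgeR and DESeq2 fits were tested on simulated data at their main settings only. Motifs were counted in promoters from RefSeq on GRCm38.p6, and exons came from GENCODE. The members and lists were chosen with earlier results of these data known. Named were, per class, the 2 most abundant genes and the 2 with the largest tested difference, genes with an unadjusted p under 0.05, partners in ratios and correlations, and likewise in the assembly and receptor lists, with Pcolce, Serpinh1, Lox and P4ha1. Other genes appear as ranges. Alternatives covered the pseudocount, the filter, scaling, the trend, array weights, a replicate block, the count tools and leaving out each library.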

Additional observations from a re-analysis of the deposited data

Results flagged for a closer look

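Over the named collagen genes and the class sums, 66 series of 5 libraries were checked for a library far from the others of its group, by Dixon's limit on the gap to the nearest library as a share of the group's range. Chance alone marks about 1 in 20 series of independent, normally distributed values, and 5 were marked here. FPKM was used without a log, and class sums repeat their genes, so that rate is only a rough guide. In Col4a1 control library 2 was the lowest at 72.9 FPKM, with the other controls at 96.2 to 102 FPKM. In Col4a2 the same library was the lowest at 45.2 FPKM, with the others at 66.9 to 70.5 FPKM, and in the type IV sum it was the lowest at 119 FPKM, with the others at 167 to 171 FPKM. Those 3 series share their genes, so they are 1 observation. In Col16a1 BC@Z-M + L library 4 was the highest at 32.5 FPKM, with the others of its group at 23.6 to 26.0 FPKM. In Col17a1 BC@Z-M + L library 2 was the highest at 5.17 FPKM, with the others at 0.141 to 0.461 FPKM.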

How the results depend on the processing

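No tested collagen gene, and no named gene of the assembly and receptor lists, had an adjusted p under 0.05 under any alternative run. Over all genes, DESeq2 gave 6 (0.0182%) and every other alternative gave 0, so this lack of calls is not particular to the collagen genes. For each class sum, the log2 ratio of the group means moved by less than the spread between libraries (1 SD) under TPM scaling, under median-ratio scaling and when each library was left out. At an unadjusted p under 0.05 there were 0 collagen genes by limma, 1 of 44 without a filter on low values (3.14% of all genes), 1 of 35 by edgeR (2.92%), 2 of 44 by edgeR without its filter (4.32%), and 1 of 20 each without control library 4 (1.95%), BC@Z-M + L library 1 (2.40%) and library 5 (2.73%). The median difference, 0.14 by limma, was 0.074 without a filter, 0.31 with array weights and 0.32 with DESeq2. The directions of small differences did change. With array weights the log2 difference was -0.0082 for Col16a1, -0.015 for Col4a1, 0.043 for Col8a1 and 0.18 for Sparc. On the counts Col8a1 had 0.019 with edgeR, 0.023 with edgeR on counts divided by 4 and 0.019 with DESeq2. Sparc had 0.034 with TPM scaling, 0.11 with quantile normalization, 0.012 with median-ratio scaling, 0.059 with edgeR, 0.044 with edgeR without a filter, 0.061 with edgeR on counts divided by 4 and 0.058 with DESeq2.

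When each library was left out in turn, differences ranged from -0.024 to 0.61 for Col1a1, -0.093 to 0.54 for Col1a2, -0.28 to 0.46 for Col3a1, -0.084 to 0.55 for Col5a2, -0.17 to 0.30 for Col6a1, -0.12 to 0.40 for Col6a2 and -0.076 to 0.34 for Col6a3. They ranged from -0.0039 to 0.43 for Col12a1, -0.15 to 0.54 for Col14a1, -4.9e-05 to 0.15 for Col16a1, -0.016 to 0.20 for Col18a1, -0.031 to 0.36 for Col23a1 and -0.31 to 0.17 for Col8a1. In the lists they ranged from -0.17 to 0.38 for Lox, -0.033 to 0.061 for P4hb, -0.069 to 0.14 for Serpinh1 and -0.20 to 0.21 for Sparc. The named genes Col15a1, Col4a2, Col5a1, Col5a3 and Col7a1 kept a higher mean after BC@Z-M + L under all 24 alternatives, but their size moved. With single libraries left out it was 0.22 to 0.64 for Col15a1, 0.042 (without control library 2) to 0.21 for Col4a2, 0.11 (without BC@Z-M + L library 1) to 0.48 for Col5a1, 0.27 (without control library 1) to 0.66 for Col5a3 and 0.24 to 0.42 for Col7a1, and with array weights it was 0.021 for Col4a2.

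With a replicate block limma called 0 collagen genes and edgeR 0, and over all genes they called 0 of 12802 and 0 of 18668. The correlation of the deviations of same-numbered libraries was -0.28, 0.028, 0.0030, 0.53 and -0.096 for replicates 1 to 5. Libraries of different numbers were not compared, so these values do not settle whether the numbers pair the libraries. Genes near the count of 1 read, such as Col4a4, allow no reading beyond their values, and the wide spread of fibrillar genes limits what 5 libraries against 5 can show: the interval of Col1a1 spans differences from -0.73 to 1.15.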

Other observations

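Summed markers of other tissues and cells also differed between libraries. The summed FPKM of 5 skeletal muscle markers was 13.4, 8.07, 17.2, 4.26 and 42.9 in control libraries and 12.7, 69.1, 79.6, 2.99 and 21.4 in BC@Z-M + L libraries. The sum of 4 adipocyte markers was 110.5 in control library 4 and 3.85 to 24.4 in the other 9 libraries. The sum of 4 pericyte markers was 8.81 to 21.3 in control and 9.30 to 20.9 in BC@Z-M + L libraries, that of 4 macrophage markers was 159 to 307 and 182 to 241, and that of 5 cartilage and bone markers was 5.19 to 23.7 and 9.97 to 18.7. The last sum came almost wholly from Sox9 and Ibsp, since Acan, Comp and Bglap did not pass 0.367 FPKM in any library. No gene of these lists had an adjusted p under 0.05 by limma, as with 0% of all tested genes. Their part in the collagen levels was not tested.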
